A study of Rhinolophus ferrumequinum with 8 samples.

Results

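The mitochondrial ribosomal protein genes are the nuclear genes that encode the proteins of the ribosome inside mitochondria. They were chosen by name, as rows of the gene table whose symbol starts with MRPL or MRPS followed by a digit, averaging 1 or more across all 8 libraries. Of 19652 genes in the table, 78 had such a name and 77 reached that mean, out of 13542 genes that did. MRPS36 was left out, with 0.669 in torpor 2, 0.957 in arousal 1 and 0 listed in the other 6 libraries. All 77 members matched the RefSeq annotation of the greater horseshoe bat by gene ID and symbol, and they lie on 25 of its chromosomes.

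The mitochondrial ribosome translates the small set of messages transcribed from mitochondrial DNA, which code for membrane subunits of the respiratory chain. Its ribosomal RNAs come from mitochondrial DNA, while its proteins are made in the cytosol and imported. MRPL genes encode proteins of the large subunit, which joins amino acids, and MRPS genes those of the small subunit, which reads the message. Some members have counterparts in the bacterial ribosome and the others are specific to mitochondria. MRPS30 and MRPS18A are named for the small subunit but sit in the large one in the mammalian structures, so they are counted there. This gave 51 large subunit members, of which 29 have a bacterial counterpart and 22 are specific to mitochondria. The 26 small subunit members comprise 16 with a bacterial counterpart and 10 specific to mitochondria.

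The samples were whole spleens of female greater horseshoe bats caught in the wild, in 4 states with 2 biological replicates each, and their RNA was sequenced. Summer active bats were sampled in July. Torpor bats, in the state of low body temperature and metabolic rate that makes up most of hibernation, were sampled in November. Arousal and winter active bats were also sampled in November, 2 h and 26 h after capture. The labels give no age and no treatment beyond capture, and libraries are named by state and replicate, as in torpor 1. Levels are TPM rescaled by the authors (TPM is a transcript abundance corrected for transcript length, so that levels of different genes can be compared), and a difference is on the log2(value + 1) scale. A test is limma's moderated test over all 13542 genes, and a gene passed where its Benjamini-Hochberg adjusted p was under 0.05.

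Column totals were 1276851 and 1331820 in summer active, 986814 and 998271 in torpor, 745098 and 780490 in arousal, and 929456 and 828257 in winter active libraries. All 5 B cell, 7 red pulp macrophage and 3 spleen stroma marker genes (TLX1, NKX2-5 and STAB2) were above 0 in every library. Other tissues were also seen, with a summed value of 11 hepatocyte genes of 19540 in arousal 2 and 49.4 to 2749 in the other 7 libraries. Without counts in the table, sequencing depth is unknown. In whole spleen, fewer cells of a type and less RNA per cell cannot be told apart.

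The members were expressed at medium to high levels in spleen. Their 8-library means ran between 5.17 and 224 rescaled TPM, with a median of 50.9, against a median of 14.5 for all genes tested. MRPL17, the counterpart of a bacterial protein beside the exit of the nascent chain, was highest with a mean of 224. MRPS12, which forms part of the decoding centre and is the counterpart of the bacterial protein in which streptomycin resistance arises, followed at 184. The mitochondria-specific MRPL55, MRPL41 and MRPL51 stood at 165, 142 and 126. At the other end, MRPS10, MRPS30, MRPL52, MRPL35 and MRPL19 had means of 13.7, 13.6, 10.3, 7.83 and 5.17. Members of the same particle therefore differed 43.3-fold in level, and the median was 50.2 for the large and 57.2 for the small subunit.

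Relative to each gene's own mean, and in the values as deposited, the members were high in torpor and in summer active 2 and low in arousal and winter active libraries. The median distance from that mean was 0.022 and 0.23 (log2) in summer active 1 and 2 and 0.28 and 0.12 in torpor 1 and 2. It was -0.33 and -0.062 in arousal 1 and 2 and -0.10 and -0.14 in winter active 1 and 2. In arousal 1, 2 of 77 members lay above their own mean, and in torpor 1, 71 did. The medians of all genes tested stayed between -0.084 and 0.046. This order turned with the column totals. With every column rescaled to 1000000, the members' median was lowest in summer active 1 and 2 (-0.38 and -0.21), 0.25 and 0.069 in torpor 1 and 2, 0.025 and 0.24 in arousal 1 and 2, and -0.051 and 0.070 in winter active 1 and 2. As a share of the column total the members summed to 0.355% and 0.388% in summer active, 0.541% and 0.467% in torpor, 0.431% and 0.512% in arousal, and 0.457% and 0.471% in winter active libraries. The members' median lay above that of all genes in the 4 summer active and torpor libraries and below it in the other 4 on both scales.

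**Figure D1:**
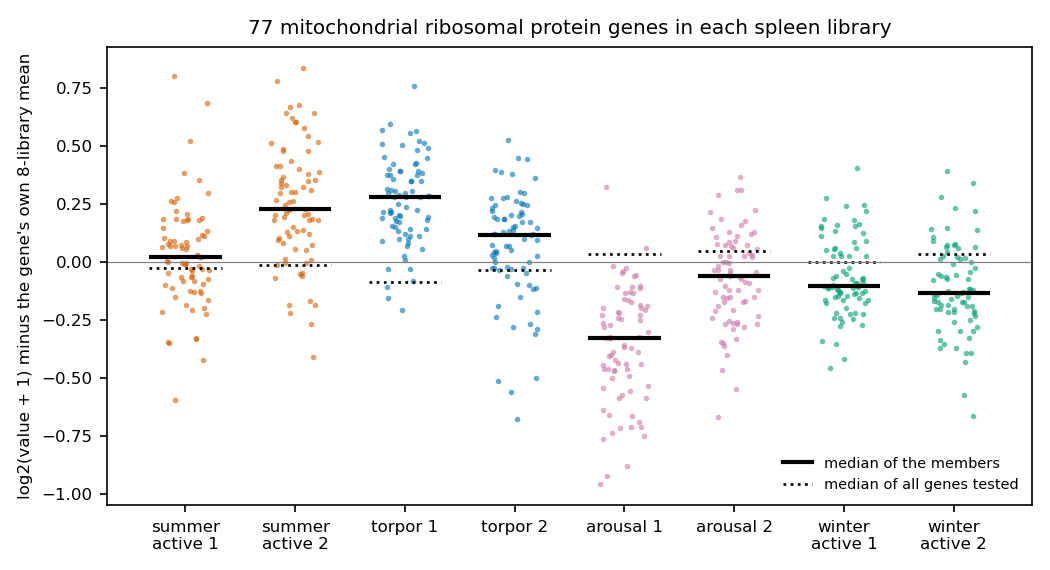
Each point is 1 of the 77 members in 1 library, as log2(value + 1) minus the gene's own 8-library mean, with libraries ordered by state. Solid bars are the members' medians and dotted bars the medians of all genes tested. The members' median lay above that of all genes in all 4 summer active and torpor libraries and below it in all 4 arousal and winter active libraries.

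By state mean in the values as deposited, 37 members were highest in summer active and 36 in torpor, against 2 in arousal (MRPL53 and MRPL15) and 2 in winter active (MRPS16 and MRPL34). The lowest state was arousal for 48 members and winter active for 21, while summer active and torpor were lowest for 4 each. After the rescaling to 1000000, which was added after seeing the data, summer active was highest for 2 members and lowest for 66, torpor for 27 and 3, arousal for 35 and 6, and winter active for 13 and 2. On that scale 71.1%, 86.2% and 86.5% of all genes lay above 0 in torpor, arousal and winter active against summer active. By single library, in the values as deposited, arousal 1 was lowest for 44 members, and summer active 2 and torpor 1 were highest for 34 and 30. Tallies of highest and lowest states and libraries were made for the members only, not over all genes. The 4 genes named here were chosen after their values were seen.

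Libraries of the same state also differed. In arousal, 66 members were higher in replicate 2 (median log2 difference of replicate 1 minus 2 of -0.31), and in summer active 61 were (-0.26). In torpor, 57 members were higher in replicate 1 (0.19), and in winter active 45 were (0.074). The same medians over all genes tested were 0.0068, -0.047, -0.025 and -0.020. Markers of other cells also differed between these replicates. The 11 hepatocyte genes summed to 1165 in arousal 1 and 19540 in arousal 2, and to 2749 and 60.2 in summer active 1 and 2. In the summer active libraries 1 and 2 the 6 genes of dividing cells summed to 312 and 561. The 7 red pulp macrophage genes summed to 14060 and 4360 there. The 3 epithelium genes in the table, of 7 listed, summed to 1.69 and 1620 in summer active 1 and 2. In winter active 1 and 2 they summed to 1.74 and 793. GKN1 was at 0 in these libraries except winter active 2. The 7 neutrophil genes summed to 12260 in torpor 1 and 1586 in torpor 2. The part of these markers in the members' levels was not tested.

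**Figure D2:**
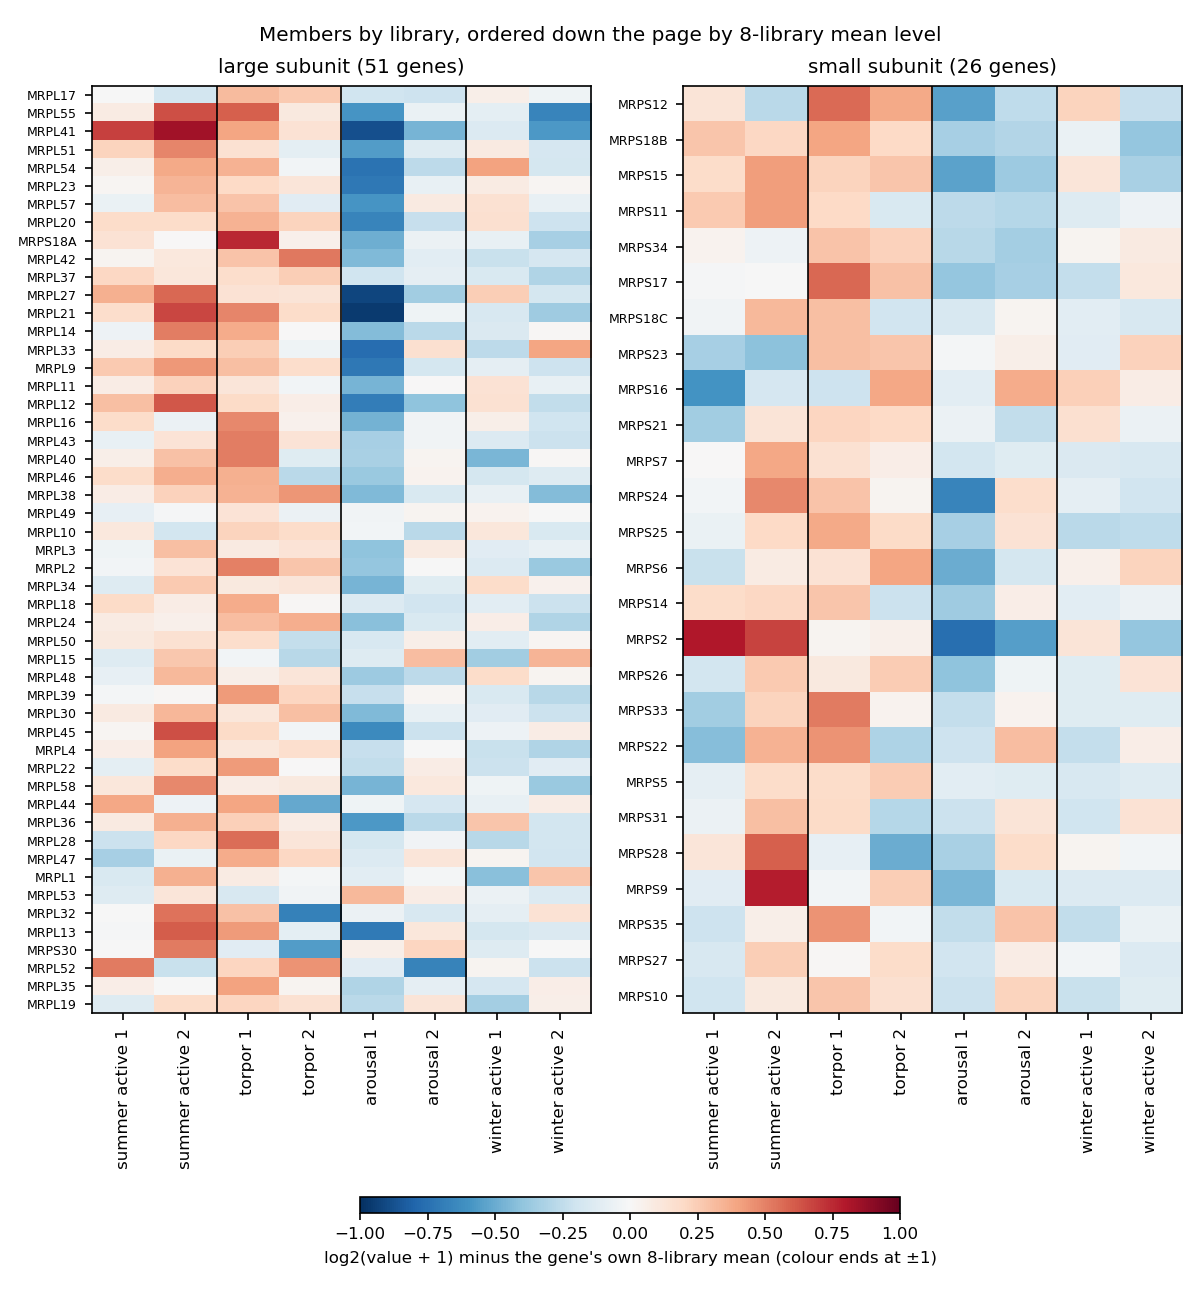
Rows are the 51 large subunit (left) and 26 small subunit (right) members, ordered down the page by mean level, and columns are the 8 libraries. Colour gives log2(value + 1) minus the gene's own 8-library mean, red above and blue below. Values are as deposited. Blue runs down most of the arousal 1 column, where 2 of 77 members lay above their own mean, and red down most of the torpor 1 column, where 71 did.

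Arousal against torpor asks what differed in spleen 2 h after capture. Mitochondrial ribosomal protein genes lay lower in arousal as a group, with a median log2 difference of -0.40, while the median of all genes tested was 0.11. The difference was below 0 for 70 of 77 members, against 41.9% of all genes, and below the all-gene median for 73. Both arousal libraries lay below both torpor libraries for 51 members, against 22.2% of all genes, and above both for 2 members, against 31.9%. No member passed by limma, nor did any gene (0.0% in each direction). At an unadjusted p under 0.05, 22 members were lower and 0 higher, against 6.88% and 12.8% of all genes.

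MRPL41, a mitochondria-specific protein that in human cells is known to bind the survival factor BCL2, had the lowest difference. It stood at 70.9 and 94.8 in arousal, against 173 and 145 in torpor (log2 difference -0.94, SE 0.23, limma adjusted p = 0.150). MRPS12 of the decoding centre stood at 122 and 150 in arousal, against 265 and 233 in torpor (-0.87, SE 0.24, limma adjusted p = 0.170). In both genes the arousal libraries lay wholly below the torpor libraries. MRPS17, the counterpart of a bacterial protein that binds ribosomal RNA early in assembly, stood at 48.5 and 50.5 in arousal, against 95.2 and 78.6 in torpor (-0.79, SE 0.20, limma adjusted p = 0.149). MRPS34, mitochondria-specific and mutated in human Leigh syndrome, stood at 55.6 and 53.1 in arousal, against 82.8 and 79.7 in torpor (-0.57, SE 0.16, limma adjusted p = 0.173). The replicates of MRPS34 were close in both states.

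The members on the higher side differed less. MRPS30 stood at 13.9 and 15.6 in arousal, against 12.2 and 8.71 in torpor (0.47, SE 0.26, limma adjusted p = 0.345), and MRPL53 at 20.1 and 16.7, against 14.1 and 15.4 (0.29, SE 0.21, limma adjusted p = 0.444). In these genes the arousal libraries lay above the torpor libraries without overlap. MRPL15 and MRPS28 had differences of 0.24 and 0.22 with overlapping libraries (limma adjusted p = 0.666 and 0.675). MRPS28 turned to -0.032 without arousal 2.

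After every column was rescaled to a total of 1000000, the all-gene median of arousal against torpor moved to 0.45 and that of the members to -0.024. The members' median minus the all-gene median was -0.51 in the values as deposited and -0.47 after this rescaling. Then 1 member was lower and 2 were higher at an unadjusted p under 0.05, against 0.761% and 29.7% of all genes. In the values as deposited, the members' median was -0.26 without arousal 1. It ran between -0.52 and -0.26 over the fits without 1 library. Other markers moved too. The 6 genes of dividing cells, none at 0, summed to 54.8 to 76.8 in arousal, against 123 to 126 in torpor, and 5 of them were lower without overlap. The 9 red cell genes in the table, of 10 listed, summed to 10.6 to 10.9 in arousal, against 91.2 to 139 in torpor. Of them, 8 were lower and 1 was higher without overlap. HBZ was at 0 in both arousal libraries and HBM in arousal 1. The 11 hepatocyte genes, none at 0, summed to 1165 to 19540 in arousal, against 95.6 to 910 in torpor, and 6 were higher without overlap. The 7 red pulp macrophage genes summed to 10970 to 14910 in arousal, against 17440 to 19020 in torpor. Without overlap, 4 of them were lower and 1 was higher. The part of these markers in the members' difference was not tested.

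**Figure D3:**
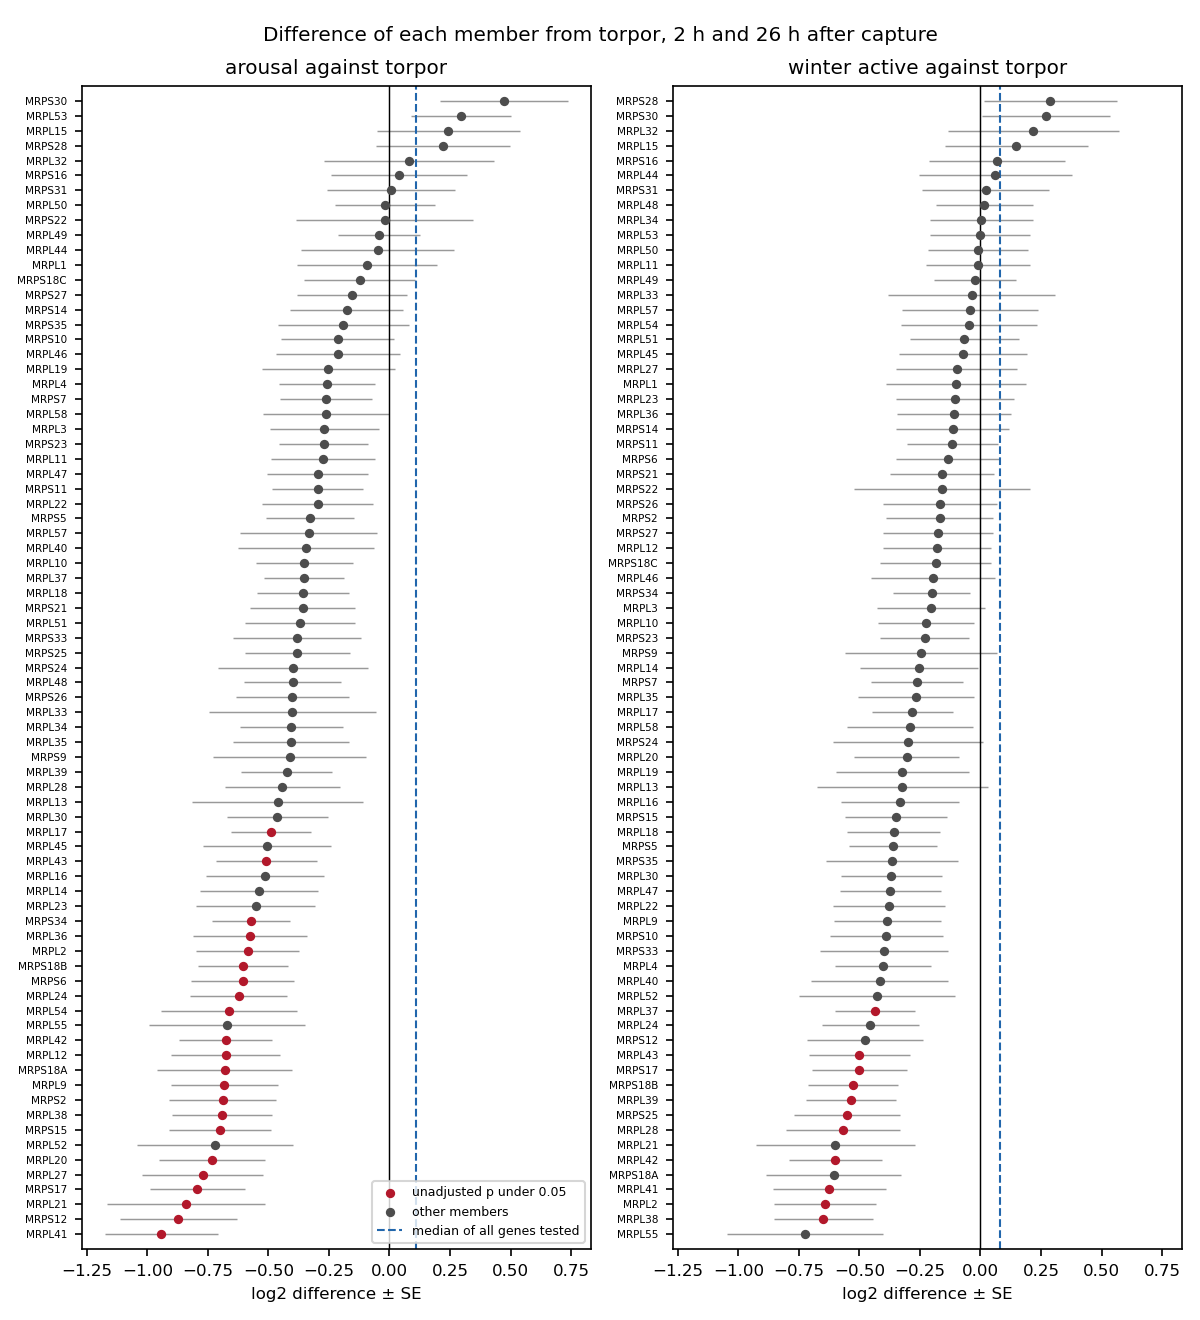
Each row is 1 member, ordered by its log2 difference, with its SE as a bar, for arousal against torpor (left) and winter active against torpor (right). Red points had an unadjusted p under 0.05, and the dashed line is the median of all genes tested. On the left 70 of 77 points, and on the right 68, lie below 0. With columns rescaled to 1000000 these counts were 41 and 48.

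Winter active against torpor asks whether the spleen still differed from torpor 26 h after capture. The members again lay lower, with a median log2 difference of -0.25 against 0.079 for all genes tested. The difference was below 0 for 68 of 77 members, against 43.2% of all genes, and below the all-gene median for 73. Both winter active libraries lay below both torpor libraries for 43 members, against 21.3% of all genes, and above both for 1 (MRPS28), against 29.6%. No member and no other gene passed by limma (0.0% in each direction). At an unadjusted p under 0.05, 11 members were lower and 0 higher, against 4.11% and 9.09% of all genes.

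The members with the smallest p were mostly mitochondria-specific proteins of the large subunit. MRPL38 stood at 48.9 and 38.0 in winter active, against 66.0 and 70.4 in torpor (-0.65, SE 0.21, limma adjusted p = 0.310). MRPL42 stood at 77.7 and 80.8 in winter active, against 111 and 131 in torpor (-0.60, SE 0.19, limma adjusted p = 0.314). MRPL39 stood at 34.7 and 31.6 in winter active, against 52.2 and 44.9 in torpor (-0.53, SE 0.19, limma adjusted p = 0.329). The fourth was MRPL2, the counterpart of a bacterial protein beside the peptidyl transferase centre, at 44.8 and 37.9 in winter active, against 70.2 and 59.9 in torpor (-0.64, SE 0.21, limma adjusted p = 0.314). None of these overlapped between the states. On the higher side, MRPS28, MRPS30, MRPL32 and MRPL15 had differences of 0.29, 0.27, 0.22 and 0.15 (limma adjusted p = 0.670, 0.676, 0.810 and 0.853). MRPL32 turned to -0.27 without torpor 2 and MRPL15 to -0.20 without winter active 2.

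The members' median minus the all-gene median was -0.33, and -0.32 after the rescaling to 1000000, where the members' own median was -0.079. On that scale 1 member was lower and 0 were higher at an unadjusted p under 0.05, against 1.24% and 14.7% of all genes. In the values as deposited, the members' median ran between -0.32 and -0.18 over the fits without 1 library. The 6 genes of dividing cells, none at 0, summed to 67.5 to 82.7 in winter active, against 123 to 126 in torpor, and all 6 were lower without overlap. The 11 hepatocyte genes summed to 49.4 to 79.5 in winter active, with FGA at 0 in 1 library, against 95.6 to 910 in torpor, and 10 were lower without overlap. All 7 pancreas genes in the table, of 11 listed, were lower without overlap, summing to 31.1 to 124 in winter active, against 369 to 1509 in torpor. Of 9 red cell genes in the table, 6 were lower and 1 was higher without overlap. Their sums were 11.4 to 65.8 in winter active, against 91.2 to 139 in torpor, with HBM and HBZ at 0 in winter active 2. What part these markers had in the members' difference was not tested.

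Torpor against summer active sets hibernating bats in November beside active bats in July. The members showed no common direction, with a median log2 difference of -0.0048 against -0.055 for all genes tested. The difference was below 0 for 39 of 77 members, against 54.9% of all genes. Torpor libraries lay above both summer active libraries without overlap for 18 members, against 20.4% of all genes, and below for 9, against 26.0%. No member passed, against 0.0738% of all genes called higher and 0.487% called lower by limma. At an unadjusted p under 0.05, 1 member was higher and 2 were lower, against 6.28% and 9.71% of all genes.

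MRPS23, a mitochondria-specific protein of the small subunit, was the member higher at an unadjusted p under 0.05. Its values were 75.2 and 73.7 in torpor bats, against 48.1 and 45.4 in summer active bats (0.66, SE 0.18, limma adjusted p = 0.167). MRPL17 had values of 277 and 267 in torpor bats, against 221 and 195 in summer active bats (0.39, SE 0.17, limma adjusted p = 0.317). MRPS12 and MRPL47 had differences of 0.54 and 0.49 (limma adjusted p = 0.330 and 0.312), again without overlap. On the lower side, MRPS2, a counterpart of bacterial S2 that is mutated in a human respiratory chain deficiency, had 43.1 and 43.9 in torpor bats, against 74.6 and 68.2 in summer active bats (-0.70, SE 0.22, limma adjusted p = 0.201). MRPS28, MRPS30 and MRPL41 had differences of -0.65, -0.59 and -0.49 (limma adjusted p = 0.311, 0.330 and 0.360). So within the same particle, MRPS23 stood at 0.66 and MRPS2 at -0.70 in the same comparison.

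The direction of this median changed with the library left out. It was -0.15 without summer active 1, 0.15 without summer active 2, -0.041 without torpor 1 and 0.13 without torpor 2. Relative to the all-gene median it was 0.050, and -0.092, 0.19, -0.0014 and 0.19 in those fits. After the rescaling to 1000000 the members' median was 0.38 and that of all genes 0.29. Then 28 members were higher and 0 lower at an unadjusted p under 0.05, against 20.4% and 3.87% of all genes. The red cell genes, 9 of 10 in the table and none at 0, summed to 91.2 to 139 in torpor, against 6010 to 8930 in summer active. The 6 genes of dividing cells summed to 123 to 126 in torpor, against 312 to 561 in summer active, and all 6 were lower without overlap. All 5 B cell genes and the 3 T cell genes in the table, of 5 listed, were lower without overlap too, summing to 676 to 733 and 79.5 to 102.6 in torpor, against 2143 to 2549 and 140.0 to 156.7 in summer active. Other lists lay higher. All 7 pancreas genes in the table, of 11 listed, were higher without overlap, summing to 369 to 1509 in torpor, against 19.4 to 23.2 in summer active. So were 4 of 7 red pulp macrophage genes and 4 of 6 adipocyte genes, with 0 lower without overlap in these lists. The part of these markers in the members' values was not tested.

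Arousal against summer active held the calls among members. MRPL41 fell to 70.9 and 94.8 in arousal, against 212 and 235.5 in summer active (log2 difference -1.43, SE 0.23, limma adjusted p = 0.0255). MRPS2 fell to 24.7 and 28.6 in arousal, against 74.6 and 68.2 in summer active (-1.39, SE 0.22, limma adjusted p = 0.0244). MRPL12, the stalk protein that recruits translation factors and that in human cells also binds the mitochondrial RNA polymerase, fell to 37.2 and 45.7 in arousal, against 74.9 and 94.0 in summer active (-1.01, SE 0.22, limma adjusted p = 0.0486). These 3 members were called lower and 0 higher, against 3.14% and 2.39% of all genes. For 77 members, 3 calls are a share near that background. At an unadjusted p under 0.05, 16 members were lower and 0 higher, against 13.2% and 15.7% of all genes.

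The calls of MRPL41 and MRPS2 held after the rescaling to 1000000, at smaller differences of -0.67 and -0.63 (limma adjusted p = 0.0371 and 0.0401). MRPL12 then lost its call at a difference of -0.25 (limma adjusted p = 0.338). On that scale 12 other members were called higher, among them MRPS16 (1.27), MRPS23 (1.15), MRPL47 (0.93) and MRPL53 (0.93). Over all 13542 genes tested, 5833 were called higher and 266 lower there. The 12 of 77 members are a smaller share than that of all genes called higher. MRPL41 lost its call without summer active 2, arousal 1 and arousal 2 (limma adjusted p = 0.122, 0.111 and 0.0683). MRPS2 lost it without those and without summer active 1 (limma adjusted p = 0.113, 0.110, 0.0769 and 0.0534). MRPL12 lost it in each of the 8 fits without a library (limma adjusted p = 0.0601 to 0.184). With only the libraries of both states fitted, all 3 lost it (limma adjusted p between 0.104 and 0.138).

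As a group the members lay lower in arousal than in summer active, with a median of -0.34 against 0.083 for all genes tested. The difference was below 0 for 68 members, against 45.1% of all genes, and 40 members were lower without overlap, against 25.3%, while 2 were higher, against 32.0%. Without arousal 1 the median was -0.17, and relative to all genes it was -0.42, and -0.26 without arousal 1. After the rescaling to 1000000 the members' median was 0.43 and the all-gene median 0.76, so that the members stood above 0 but 0.34 below other genes. On that scale 2 members were lower and 24 higher at an unadjusted p under 0.05, against 2.74% and 52.4% of all genes. MRPS23 and MRPS16 were on the higher side, at 60.0 and 63.1 in arousal against 48.1 and 45.4 in summer active for MRPS23, and 55.7 and 77.6 against 39.4 and 53.2 for MRPS16. Their differences were 0.39 and 0.51 (limma adjusted p = 0.208 and 0.265). Red cell genes (9 of 10 in the table) were lower without overlap in all 9, summing to 10.6 to 10.9 in arousal against 6010 to 8930 in summer active, and HBZ and HBM reached 0 in arousal. The 6 genes of dividing cells summed to 54.8 to 76.8 in arousal, against 312 to 561 in summer active. The 5 B cell genes summed to 519 to 753 in arousal, against 2143 to 2549 in summer active, and 4 were lower without overlap. The part of these markers in the members' difference was not tested.

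**Figure D4:**
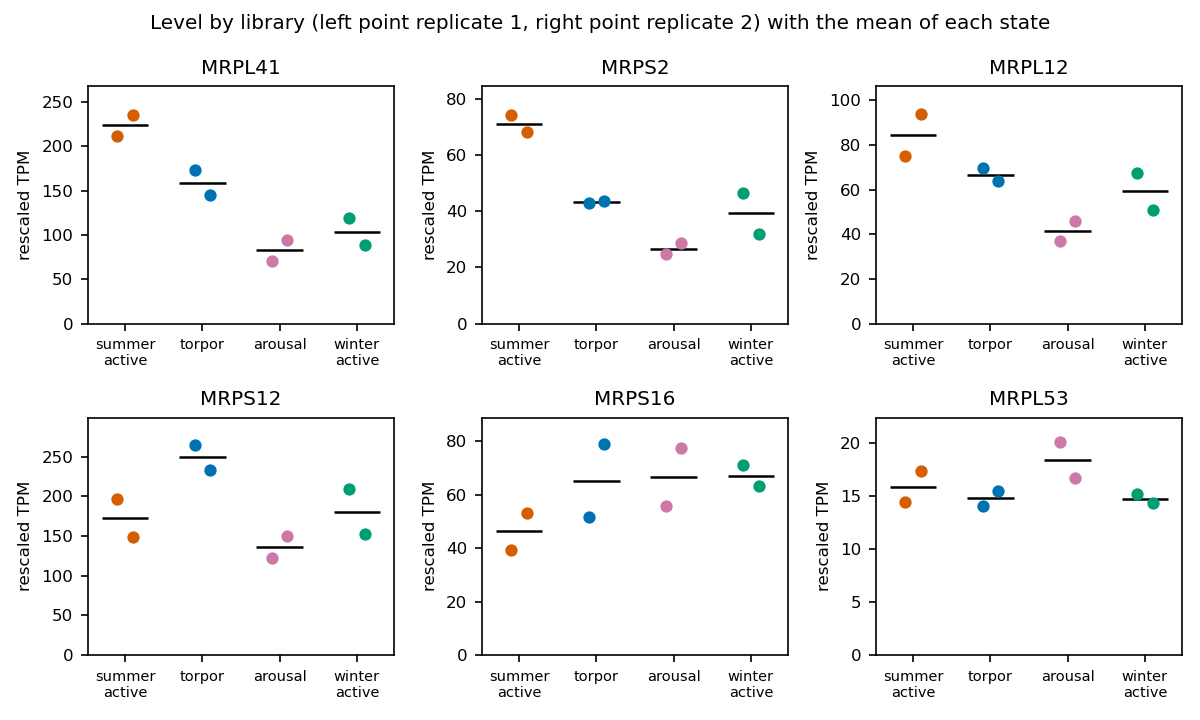
Levels in rescaled TPM of 6 members, 1 point per library and a bar at the mean of each state, with axes that start at 0. In these values, as deposited, MRPL41, MRPS2 and MRPL12 are lowest in arousal and highest in summer active, MRPS12 is highest in torpor, and MRPS16 and MRPL53 do not follow the other members.

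Winter active against summer active asks whether active bats differed between November and July. The members lay lower in winter active, with a median of -0.21 against 0.046 for all genes tested. The difference was below 0 for 66 of 77 members, against 46.0% of all genes, and 37 members were lower without overlap, against 21.9%, while 3 were higher, against 27.2%. No member passed, against 0.14% of all genes called higher and 0.894% called lower by limma. At an unadjusted p under 0.05, 4 members were lower and 0 higher, against 6.96% and 7.88% of all genes.

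The lower members with the smallest p included MRPL41 and MRPS2 again. MRPL41 stood at 119 and 88.1 in winter active, against 212 and 235.5 in summer active (-1.12, SE 0.23, limma adjusted p = 0.0969). MRPS2 stood at 46.5 and 32.0 in winter active, against 74.6 and 68.2 in summer active (-0.87, SE 0.22, limma adjusted p = 0.155). MRPS18B and MRPL4 had differences of -0.47 and -0.49 (limma adjusted p = 0.307 and 0.310), which turned to 0.092 and 0.061 after the rescaling to 1000000. MRPS23 and MRPS16 again stood on the higher side, with differences of 0.43 and 0.54 (limma adjusted p = 0.337 and 0.411), and MRPS6 and MRPS21 had 0.21 and 0.16 (limma adjusted p = 0.653 and 0.745). MRPS21 turned to -0.080 without summer active 1. MRPS23 was called higher after the rescaling (0.99, limma adjusted p = 0.0477), the 1 member so called, against 662 of 13542 genes.

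The members' median was -0.33 without summer active 1 and -0.10 without summer active 2. Relative to all genes it was -0.25, and -0.16 without summer active 2. After the rescaling it was 0.35 for members and 0.55 for all genes, and 1 member was lower and 12 higher at an unadjusted p under 0.05, against 2.27% and 37.4% of all genes. Red cell genes (9 of 10 in the table) were called lower in all 9, summing to 11.4 to 65.8 in winter active against 6010 to 8930 in summer active, with HBZ and HBM at 0 in winter active 2. The 6 genes of dividing cells summed to 67.5 to 82.7 in winter active, against 312 to 561 in summer active, and 4 were called lower. The 5 B cell genes summed to 763 to 1066 in winter active, against 2143 to 2549 in summer active, all lower without overlap. The part of these markers in the members' difference was not tested. The comparisons with summer active share its libraries, as those with torpor share theirs, so their values are set side by side and not counted as independent.

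Winter active against arousal asks what differed between 26 h and 2 h after capture. The members' median was 0.080, against -0.037 for all genes tested, and 25 of 77 members lay below 0, against 54.4% of all genes. Both winter active libraries lay above both arousal libraries for 20 members, against 18.1% of all genes, and below for 4, against 21.3%. No member and no other gene passed by limma (0.0% in each direction), and at an unadjusted p under 0.05, 2 members were higher and 0 lower, against 3.08% and 2.37% of all genes. MRPL27, the counterpart of a bacterial protein that reaches into the peptidyl transferase centre, stood at 85.7 and 63.8 in winter active, against 37.6 and 56.3 in arousal (0.67, SE 0.25, limma adjusted p = 0.825). MRPS2 stood at 46.5 and 32.0 in winter active, against 24.7 and 28.6 in arousal (0.52, SE 0.22, limma adjusted p = 0.825). MRPL53 and MRPS25 had differences of -0.30 and -0.17 (limma adjusted p = 0.830 and 0.890), and MRPS25 turned to 0.064 without arousal 2.

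The members' median in this comparison was -0.047 without arousal 1 and 0.22 without arousal 2. It was -0.12 after the rescaling to 1000000, where the all-gene median was -0.22. Relative to all genes it was 0.12, and -0.016 without arousal 1 and 0.24 without arousal 2. The direction of this median turned both with the arousal library left out and with the scaling. The 11 hepatocyte genes were lower without overlap, summing to 49.4 to 79.5 in winter active against 1165 to 19540 in arousal, with FGA at 0 in 1 winter active library. The 3 T cell genes in the table summed to 90.6 to 109 in winter active, against 52.0 to 76.9 in arousal, and the 3 stroma genes to 80.6 to 100.7, against 56.9 to 60.2, all higher without overlap. What part these markers had in the members' difference was not tested.

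Members that share a site on the ribosome are set side by side here, and MRPL10, MRPL22 and MRPL24 were added after their values were seen. The base and stalk of the factor-binding site are built by MRPL10, MRPL11 and MRPL12. In arousal against torpor they differed by -0.35, -0.28 and -0.68, and in arousal against summer active by -0.11, -0.38 and -1.01. MRPL10 averaged 45.2 ± 5.43 in arousal and 57.7 ± 1.13 in torpor (SD, n = 2 each). MRPL11 averaged 56.3 ± 12.9 in arousal and 67.5 ± 5.06 in torpor (SD, n = 2 each). Among proteins around the exit of the nascent chain, MRPL22, MRPL23, MRPL24 and MRPL45, which ties the ribosome to the inner membrane, differed by -0.30, -0.55, -0.62 and -0.51 in arousal against torpor. MRPL58, which frees peptides from stalled ribosomes, differed by -0.26 there, at 19.7 and 29.8 in arousal against 29.0 and 29.6 in torpor.

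The MRPS18 paralogs descend from a single bacterial protein but hold different places, and MRPS18A and MRPS18B are counted here as mitochondria-specific. MRPS18A of the large subunit stood at 64.9 and 87.8 in arousal, against 156 and 94.9 in torpor, a difference of -0.68. MRPS18B stood at 64.4 and 66.2 in arousal, against 107 and 93.2 in torpor, a difference of -0.60. MRPS18C, which holds the site of the bacterial protein, stood at 55.8 and 63.9 in arousal, against 77.3 and 54.9 in torpor, a difference of -0.12 with overlapping libraries. None of these passed.

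Several members are known from human mitochondrial disease. In arousal against torpor, MRPS2, MRPS34, MRPL3, MRPS7 and MRPS14 differed by -0.69, -0.57, -0.27, -0.26 and -0.18. MRPL44, MRPS22 and MRPS16 were near 0, at -0.048, -0.019 and 0.041. MRPS22 varied as much within as between states, at 25.7 and 37.2 in arousal, against 41.1 and 23.9 in torpor, and its summer active values were 21.97 and 38.3. MRPL44 likewise stood at 26.5 and 24.2 in arousal, against 36.2 and 18.9 in torpor. Outside that set, MRPL28 had -0.44 and MRPS27, a pentatricopeptide repeat protein, -0.16.

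Members were also split by subunit and by whether they were counted as having a bacterial counterpart. In arousal against torpor the median was -0.41 for large and -0.34 for small subunit members, and 47 of 51 and 23 of 26 lay below 0. It was -0.40 for members with a bacterial counterpart (41 of 45 below 0) and -0.37 for mitochondria-specific ones (29 of 32). In winter active against torpor it was -0.28 for large and -0.22 for small subunit members. In torpor against summer active it was -0.023 for large and 0.12 for small subunit members. These splits were described and the difference between them was not tested.

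Members with higher levels lay lower in arousal. Across the 77 members, the difference in arousal against torpor and the level had a Pearson correlation of -0.51 and a Spearman correlation of -0.52, where the Spearman correlation over all genes tested was -0.31. These are correlations across genes of the same libraries, and genes are not independent replicates. Among the 7 members with a mean between 100 and 400 the median difference was -0.66, against -0.32 for 996 other genes of that range. Among the 35 with a mean between 50 and 100 it was -0.40 (34 below 0), against -0.099 for 1305 other genes. Among the 23 between 20 and 50 it was -0.36, against 0.056 for 2887 others, and among the 12 between 5 and 20 it was -0.20, against 0.27 for 4787 others. In each of these ranges the members' median lay below that of other genes.

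Most pairs of members had a positive correlation over the 8 libraries. Over the 2926 pairs of members the median Pearson correlation of log2 values was 0.53, and 343 pairs were negative. The pairs share the same 8 libraries and their scaling, and no correlation was computed for pairs of other genes. MRPL21, MRPL23 and MRPS24 were closest to the median of the other members (r = 0.94, 0.94 and 0.92 over 8 libraries). MRPL21 ran between 34.9 in arousal 1 and 110 in summer active 2, and was among the members with the largest spread, with MRPL41, MRPS2, MRPL55 and MRPL27. MRPL53, MRPS16 and MRPS30 were least like the others (r = -0.59, -0.025 and -0.0088).

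MRPL53 had its highest value, 20.1, in arousal 1, the library that was lowest for most members. Its state means were 15.9 ± 2.03 in summer active, 14.8 ± 0.941 in torpor, 18.4 ± 2.38 in arousal and 14.7 ± 0.594 in winter active bats (SD, n = 2 each). MRPS16, mutated in a human infantile lactic acidosis, stood at 39.4 and 53.2 in summer active, 51.8 and 78.8 in torpor, 55.7 and 77.6 in arousal and 71.0 and 63.2 in winter active. It lay 0.20 below the library's member median in summer active as a mean (log2 distance -0.20), and 0.18, 0.60 and 0.44 above it in torpor, arousal and winter active. On the same measure MRPL41 stood at 2.06, 1.48, 0.92 and 1.05, and MRPS2 at 0.43, -0.36, -0.67 and -0.34. These distances compare genes within a library. MRPL49, MRPL50 and MRPS27 varied least, and MRPL49 ran between 47.9 and 55.9 over all 8 libraries.

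MRPS11 and MRPL46 were the 1 pair of members that neighbour each other in the order of protein-coding genes of the RefSeq annotation. MRPS11 stood at 57.3 and 56.5 in arousal, against 79.5 and 61.9 in torpor, and MRPL46 at 43.5 and 57.8 in arousal, against 72.8 and 46.8 in torpor. Both had their highest value in summer active 2, at 92.2 and 73.2.

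Mitoribosomal proteins without an MRP name (DAP3, AURKAIP1, CHCHD1, PTCD3 and GADD45GIP1) had a median of -0.48 in arousal against torpor, with 4 of 5 below 0. DAP3, which binds GTP in the small subunit, stood at 36.5 and 34.8 in arousal, against 49.95 and 50.3 in torpor (limma adjusted p = 0.256), and AURKAIP1 at 63.0 and 83.9, against 131 and 105 (limma adjusted p = 0.179). Their median was 0.053 in winter active against torpor. Assembly factors (24 of 25 tested), translation factors (14 of 15) and mitochondrial aminoacyl-tRNA synthetases (15 of 17) had medians of -0.13, -0.16 and -0.032 in arousal against torpor, with 13, 9 and 8 below 0. No gene of these 4 lists passed in any of the 6 comparisons. TUFM, the elongation factor that brings tRNA to the ribosome, stood at 61.9 and 65.5 in arousal, against 91.7 and 92.4 in torpor (-0.53, limma adjusted p = 0.190).

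Factors that make and process mitochondrial RNA (20 of 20 tested) and regulators of mitochondrial biogenesis (11 of 13) had medians of 0.15 and 0.25 in arousal against torpor, where the median of all genes tested was 0.11. Above 0 lay 16 and 9 of them, against 58.0% of all genes. Relative to all genes the medians were 0.039 and 0.14, and -0.086 and 0.18 with quantile normalization. TFAM, which packages mitochondrial DNA and starts its transcription, stood at 29.5 and 40.2 in arousal, against 13.95 and 11 in torpor (1.41, limma adjusted p = 0.174). Over the 6 comparisons 2 genes of these lists passed, both in arousal against summer active. There 2.39% of all genes were called higher and 3.14% lower. SP1, a transcription factor, rose to 17.6 and 11.3 in arousal, against 2.37 and 4.53 in summer active (1.81, limma adjusted p = 0.0438). SLIRP, which with LRPPRC stabilises mitochondrial messages, fell to 75.5 and 86.2 in arousal, against 157 and 151 in summer active (-0.92, limma adjusted p = 0.0343).

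Nuclear-encoded respiratory chain subunits (56 of 75 listed genes were in the table under their symbols) and cytosolic ribosomal protein genes (79 of 81 tested) were set beside the members. In arousal against torpor the medians were -0.40 for members, -0.48 for respiratory chain subunits and -0.68 for 79 cytosolic ribosomal protein genes. In winter active against torpor they were -0.25, -0.22 and -0.20. In winter active against arousal the members' median was 0.080, that of respiratory chain subunits 0.21 and that of cytosolic ribosomal protein genes 0.53. In arousal against summer active, 2 genes of each of these lists were called lower, against 3.14% of all genes. For lists of 56 and 79 genes, 2 calls are a share near that background. With quantile normalization the order in arousal against torpor was reversed. The medians were then -0.41 for members, -0.27 for respiratory chain subunits and -0.14 for cytosolic ribosomal protein genes. In the same order they were -0.18, -0.071 and 0.037 in winter active against torpor, and 0.13, 0.17 and 0.15 in winter active against arousal. The difference between the lists was not tested.

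**Figure D5:**
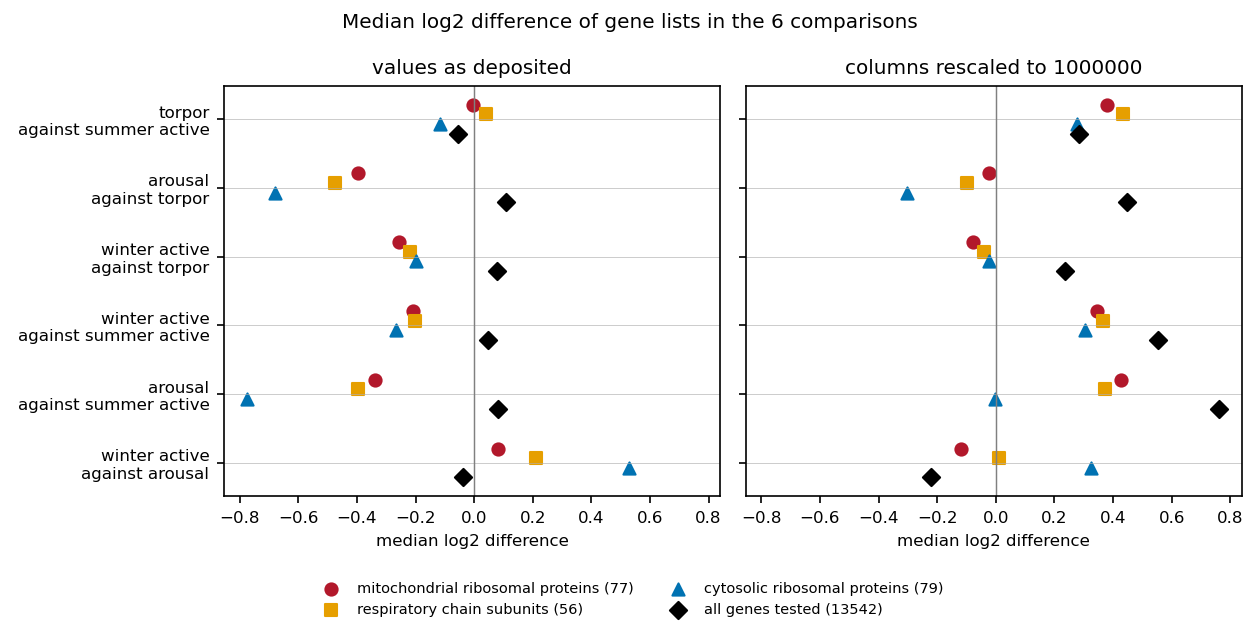
Median log2 difference in the 6 comparisons for the 77 members, 56 respiratory chain subunits, 79 cytosolic ribosomal protein genes and all 13542 genes tested, in the values as deposited (left) and with each column rescaled to 1000000 (right). Rescaling moves every list to the right in 5 comparisons and to the left in winter active against arousal, while the members' median stays below that of all genes in arousal and winter active, both against torpor and against summer active.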

How the data were processed

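Whole spleen RNA was measured in 8 libraries, 2 for each of 4 states. Per the submitters' processing notes, kallisto 0.46.2 and sleuth 0.30.0 were used. How transcripts were summed to genes and how libraries were scaled to each other is not stated in the labels. The authors deposited a rescaled TPM signal per gene and library, and its columns do not sum to 1000000. A log-scale test had been planned for TPM and was applied to this signal unchanged.

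Genes averaging 1 or more were tested as log2(value + 1) in limma 3.58.1 (R 4.3.3) with a mean-variance trend. A single model held all 8 libraries, with 4 residual and 3.29 prior degrees of freedom, and p-values were Benjamini-Hochberg adjusted over 13542 genes. The code was tested on simulated data. Replicates are biological per the labels. The p-values rest on the spread between replicates pooled over the 4 states and moderated by that of other genes. They do not use the spread within the states compared alone.

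Members and lists were chosen with earlier results of these data known. Members were named with a difference where they passed, or else as the 4 smallest p in each direction of a comparison (2 in arousal against summer active and in winter active against arousal). Members named with levels were the extremes of level, spread and likeness, or had a known role. Settings varied were the pseudocount (0.1), the filter (none, or a mean of 5), the scaling (4 others), robust moderation, a block for replicate number, the states in the model, and each library.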

Additional observations from a re-analysis of the deposited data

How the results depend on the processing

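Scaling moved the members' median most. With columns rescaled to 1000000 it was 0.38 in torpor against summer active, -0.024 in arousal against torpor, -0.079 in winter active against torpor, 0.35 (0.345) in winter active against summer active, 0.43 in arousal against summer active and -0.12 in winter active against arousal. With equal totals without marker genes it was 0.38, -0.012, -0.088, 0.34, 0.44 and -0.14 in the same order. Members below 0 then numbered 5, 41, 4, 7 and 50 after rescaling to 1000000, and 5, 39, 4, 6 and 52 with equal totals, in these comparisons without winter active against torpor. Under either setting 1 member was called higher in winter active against summer active and 12 in arousal against summer active. Of all 13542 genes, 662 and 5833 were called higher there after rescaling to 1000000, and 614 and 5945 with equal totals. MRPS18B turned to 0.092 and 0.083, and MRPL4 to 0.061 and 0.051, in winter active against summer active under these settings. The columns' totals differ by state, which is what both settings remove. Relative to all genes, the members' median kept its sign under every scaling in 5 comparisons, and was -0.037 with quantile normalization in torpor against summer active. In winter active against torpor it was -0.17 with quantile normalization. With only the libraries of both states, 0 members were called in arousal against summer active, where 0 of all genes were called higher and 27 lower. The cause of the other changes was not tested.

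Leaving out 1 library gave a members' median of -0.46 to -0.17 in arousal against summer active, and of -0.52 to -0.26 relative to all genes. The relative median ran between -0.092 and 0.19 in torpor against summer active and between -0.64 and -0.36 in arousal against torpor. Members below 0 numbered 18 to 46 in torpor against summer active and 7 to 43 in winter active against arousal. Those below the all-gene median numbered 14 to 43 and 7 to 41. Both counts were added after seeing the data. MRPS28 ran between -0.032 and 0.48 (0.476) in arousal against torpor, MRPL32 between -0.27 and 0.70 and MRPL15 between -0.20 and 0.49 in winter active against torpor, MRPS21 between -0.080 and 0.40 in winter active against summer active, and MRPS25 between -0.41 and 0.064 in winter active against arousal.

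Replicate numbers were shared between states. Deviations of same-numbered libraries correlated between -0.191 and 0.322 over 6 pairs (median 0.174). These correlations had no reference value, so whether same-numbered samples share more than a number was not tested. With replicate number as a block, 2 members were called lower in arousal against summer active, and MRPL12 had an adjusted p of 0.0556 by limma. Over all genes and settings, calls in arousal against summer active ran between 0 and 5945 higher and between 24 and 486 lower. They ran between 0 and 662 higher and between 15 and 283 lower in winter active against summer active, between 0 and 63 higher and between 9 and 249 lower in torpor against summer active, between 0 and 677 higher and between 0 and 6 lower in arousal against torpor, between 0 and 2 in each direction in winter active against torpor, and at most 1 in winter active against arousal. Depth is unknown, and 2 libraries a state limit every test.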
